A study of Mus musculus with 7 samples.

Results

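This section describes 36 imprinted genes in mouse olfactory epithelium on postnatal day 7. They are necdin (Ndn) and 35 other genes of imprinted clusters, taken by symbol from the gene count table, which held 50600 genes, and all 36 were present. The 7 libraries were 1 from Amigo1+/+ tissue (WT), 3 from Amigo1-/- tissue (KO) and 3 from Amigo1neo/neo tissue (neo), in which a neomycin cassette was put where the coding region of Amigo1 had been. The product of Amigo1 is a transmembrane adhesion protein of neurons. The labels call both KO and neo knockouts of it, and give no other allele or agent. The tissue dissected was the whole epithelium. The neo libraries carry a different sample-name code and date-like number from WT and KO, so that code, that number and genotype cannot be told apart. Whether each library stands for a separate animal is not stated, so a p-value here covers only the spread among libraries, which can be partly technical.

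At an imprinted gene, the copy inherited from one parent is transcribed and the other is kept silent, in part through DNA methylation laid down in the egg or sperm. Such genes lie in clusters under shared control regions, and many act in fetal and early postnatal growth, in muscle and in the nervous system. Necdin, a MAGE family protein that restrains proliferation and favours survival of neurons, is expressed from the paternal copy in the Prader-Willi/Angelman cluster. Read counts here do not separate the parental alleles, so which copy was expressed was not measured, and the parent named below is background.

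ZFP57, a zinc finger protein that helps keep imprints, binds the hexamer TGCCGC when it is methylated. The promoters of Mest, Meg3, Dlk1 and Nap1l5 are shown because results below turn on these genes or on their start sites. Each is the 250 bases before a RefSeq start on GRCm38.p6, 5′ to 3′ on the gene's strand, with the hexamer on either strand (TGCCGC or GCGGCA) in capitals.
Mest, chr6:30737800-30738049, plus strand: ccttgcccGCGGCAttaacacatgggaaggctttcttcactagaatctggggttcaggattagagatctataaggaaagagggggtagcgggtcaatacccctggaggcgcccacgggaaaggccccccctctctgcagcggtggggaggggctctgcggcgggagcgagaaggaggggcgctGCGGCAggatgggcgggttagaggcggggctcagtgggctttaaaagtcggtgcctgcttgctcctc
Meg3, chr12:109540746-109540995, plus strand: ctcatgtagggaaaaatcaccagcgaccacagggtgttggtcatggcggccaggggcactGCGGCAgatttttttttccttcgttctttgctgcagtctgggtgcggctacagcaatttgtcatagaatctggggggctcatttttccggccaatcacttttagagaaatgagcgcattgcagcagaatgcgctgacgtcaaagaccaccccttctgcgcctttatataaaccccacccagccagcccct
Dlk1, chr12:109452573-109452822, plus strand: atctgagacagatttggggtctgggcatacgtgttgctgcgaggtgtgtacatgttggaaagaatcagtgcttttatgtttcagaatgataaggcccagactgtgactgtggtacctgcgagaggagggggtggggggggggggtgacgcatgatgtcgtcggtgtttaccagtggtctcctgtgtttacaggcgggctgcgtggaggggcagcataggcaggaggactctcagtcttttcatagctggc
Nap1l5, chr6:58907127-58907376, minus strand: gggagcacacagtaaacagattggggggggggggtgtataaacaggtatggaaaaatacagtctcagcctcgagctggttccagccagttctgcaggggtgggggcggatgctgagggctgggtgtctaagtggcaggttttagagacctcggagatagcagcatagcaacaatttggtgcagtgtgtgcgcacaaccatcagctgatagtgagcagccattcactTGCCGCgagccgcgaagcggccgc
The Mest window holds 2 copies, at 242 and 67 bases before the start. The Meg3 window holds 1 at 190 bases and the Nap1l5 window 1 at 24 bases, while these letters are not in the Dlk1 window. Promoters were found for 27 of the 36 genes, in 41 windows. The hexamer stood in 6 of them (14.6%), from Zim1, Mest, Meg3, Plagl1 and Nap1l5, against 8.68% of 32841 RefSeq promoters. The 2 Mest windows that hold it nearly coincide. The median number of CpG dinucleotides was 10 in the imprinted gene windows and 6 over all promoters. The window of Ndn (chr7:62348027-62348276), which is not printed, held 5 of them and 0 copies of the hexamer. A link between the hexamer and the differences below was not tested. A match describes the letters and not binding. The Nap1l5 window overlaps an exon of a Herc3 transcript on the other strand.

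The libraries held 14879415 to 21343058 gene counts, of which the 36 genes took 0.243 to 0.368%. Amigo1 had 744 counts in WT, 0, 8 and 16 in the KO libraries and 11, 5 and 1 in the neo libraries. Mature olfactory neuron markers (15 genes, Omp and Adcy3 among them) summed to 4016 to 5160 CPM (each count relative to its library's total, TMM-adjusted) across the libraries, so the defining markers of the labelled tissue were present. One library stood apart, neo replicate 1: 11 of 12 skeletal muscle markers were highest there, summing with Pax7 to 1188 CPM against 17.1 to 29.3 CPM elsewhere. It and WT were also the 2 libraries with high Xist (1145 and 643 CPM, against at most 4.21), and the others had high Ddx3y. Xist is high in female tissue and Ddx3y lies on the Y chromosome. By these genes WT and neo replicate 1 were female and the other libraries male. Leaving out neo replicate 1 thus removes both the muscle-rich library and the only female one among KO and neo, and the 2 traits cannot be told apart. Log2 fold changes that moved by over 1.5 times without neo replicate 1 are given with and without it.

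Levels between genes are compared in TPM, a share of all transcripts that accounts for length. Mean TPM over the 7 libraries was at least 10 for 19 genes, 1 to 10 for 10 genes and under 1 for 7 genes. Gnas, which encodes the stimulatory G protein alpha subunit, was the most abundant, at 700 in WT, 671, 729 and 722 in KO and 735, 658 and 819 in neo. H19, a maternally expressed noncoding RNA, followed at 283 in WT, 308, 320 and 276 in KO and 571, 277 and 429 in neo. Igf2, the paternally expressed growth factor next to it, was at 167 in WT, 199, 185 and 155 in KO and 248, 176 and 219 in neo. The values of these 3 genes did not overlap one another in any library. Mest, which encodes a hydrolase-like protein, was at 46.8 in WT, 50.6, 52.5 and 44.5 in KO and 88.6, 48.8 and 53.4 in neo. Cdkn1c, a cyclin-dependent kinase inhibitor, was at 49.0 in WT, 55.7, 54.5 and 47.7 in KO and 66.8, 52.6 and 45.7 in neo, and its range overlapped that of Mest. Rian, a maternally expressed noncoding RNA, had the next highest mean (35.8), but this rested on neo replicate 1. Its TPM was 21.9 in WT, 15.3, 26.1 and 21.3 in KO and 123, 17.1 and 26.1 in neo. Nnat (mean 34.6), Ube3a (33.7) and Grb10 (33.6) lay at about the same level.

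**Figure D1:**
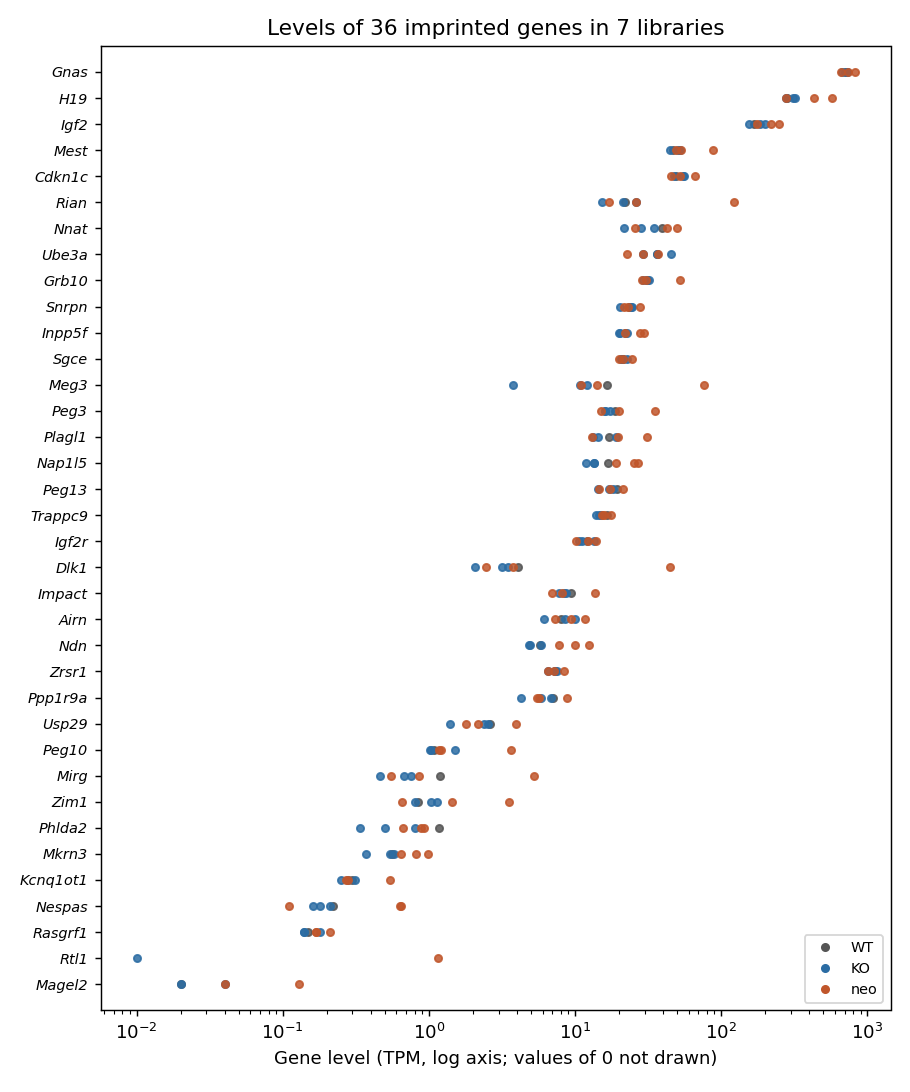
Level of each of the 36 genes in TPM on a log axis, 1 point per library, coloured by genotype and ordered by mean. Gnas, H19 and Igf2 lead, and 1 neo library lies far to the right of the others for Rian, Meg3, Dlk1, Mirg and Rtl1.

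Of the 36 genes, 6 did not pass the count filter for neo against KO, and were not tested. They had few counts: Magel2 had 0 to 8, Phlda2 4 to 10, Nespas 2 to 16 and Rasgrf1 6 to 11 in the 7 libraries. Mirg had 54 counts in neo replicate 1 and 3 to 13 elsewhere. Rtl1 had 91 in that library and 0 or 1 elsewhere, where a count of 0 still allows up to 3 counts. Among the 30 tested genes, the coefficient of variation between the KO libraries ran from 2.47% (Gnas) to 36.4% (Meg3), with a median of 8.72%.

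The series compares the cassette allele with the Amigo1-/- allele. Ndn was higher in every neo library than in any KO library: 14.6 CPM in WT, 13.7, 15.1 and 12.97 in KO and 26.6, 22.4 and 25.0 in neo, or 13.9 ± 1.09 and 24.6 ± 2.13 (SD, n = 3 each). WT lay within the KO range, and the log2 fold change of neo over KO was 0.82 (SE 0.13). Nap1l5, which encodes a nucleosome assembly protein family member, was also higher in every neo library: 20.5 CPM in WT, 15.9, 17.4 and 17.9 in KO and 25.6, 27.4 and 32.6 in neo. Its log2 fold change was 0.73 (SE 0.13), and WT lay between the groups. With edgeR's quasi-likelihood test, adjusted over 17638 genes, Ndn had an adjusted p of 0.269 and Nap1l5 of 0.306, so neither passed 0.05. DESeq2, run on the same counts, gave 0.000324 and 0.00321, and both passed there. The authors' deposited table, also made with DESeq2, gives adjusted p-values of 0.00121 and 0.00747. The call therefore depends on the test, while the direction and size do not. Without neo replicate 1, the log2 fold changes were 0.76 and 0.81, with adjusted p of 0.0957 and 0.0820 in edgeR and 0.00167 and 0.000354 in DESeq2. That last fit was added after seeing the data.

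Over all 30 tested genes, edgeR called 0 (0.017% of all genes were called). At an unadjusted p under 0.05 there were 4, against 9.32% of all genes: 3 higher in neo (4.59% of all genes), Ndn, Nap1l5 and Plagl1, and 1 lower (4.72%), Ube3a. DESeq2 called 2 of 29 (0.574% of all genes), leaving out Dlk1, whose adjusted p it did not give. The authors' deposited table called the same 2, of 34 with an adjusted p (0.429% of its genes). The genes were chosen with earlier results of these data known, so counts beside shares here do not test the set. Groups did not overlap, with neo higher, for 3 genes, Ndn, Nap1l5 and Inpp5f (7.9% of all genes), and with neo lower for 0 (7.69%). Without neo replicate 1, 5 did so with neo higher (15.4% of all genes), the same 3 with Mkrn3 and Trappc9, and 3 with neo lower (17.2%), Snrpn, Ube3a and Impact. The median log2 fold change was 0.25 over the 30 genes and -0.0022 over all genes, and 22 of 30 were positive (49.6% of all genes). Without neo replicate 1 the median was 0.062 against 0.0075, with 20 of 30 positive (51.3%). EdgeR then called 0 (0.0955% of all genes), with 4 at an unadjusted p under 0.05 (13.6%), and DESeq2 called Ndn and Nap1l5, 2 of 30 (2.02%). In bulk tissue, fewer cells of a type and less RNA per cell cannot be told apart.

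**Figure D2:**
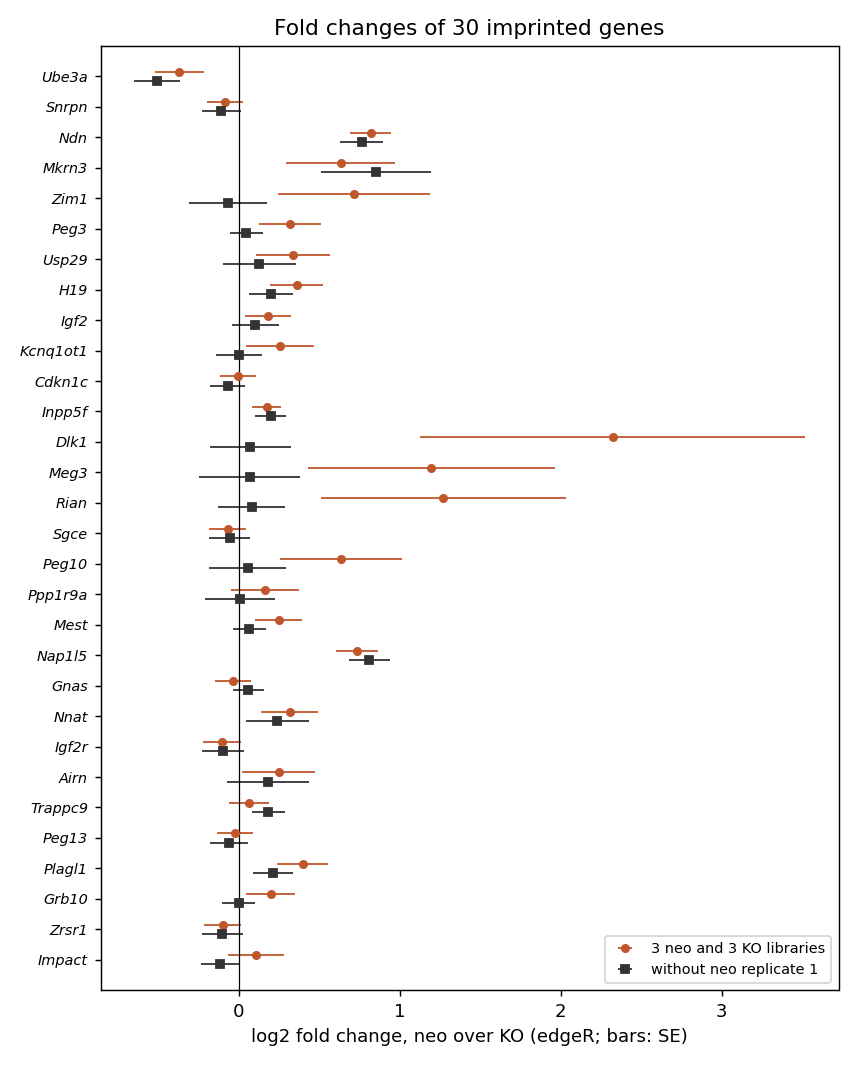
Log2 fold change of neo over KO with its SE for the 30 tested genes, from 3 against 3 libraries (circles) and without neo replicate 1 (squares). Ndn and Nap1l5 keep their values, while those of Dlk1, Meg3, Rian, Zim1 and Peg10 fall to near 0.

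In the Prader-Willi/Angelman cluster on chromosome 7, Ndn (62346569 to 62350262 on GRCm38, a single exon) lies 26.7 kb from Magel2 and 67.3 kb from Mkrn3, all expressed from the paternal copy. Mkrn3, a ubiquitin ligase of the makorin family, was at 0.918 CPM in WT, 1.03, 0.972 and 0.662 in KO and 0.980, 1.62 and 1.59 in neo. Its log2 fold change was 0.63 (adjusted p = 0.603, edgeR) and 0.85 without neo replicate 1 (0.333), and the groups overlapped only through that library. Snrpn, a spliceosome protein gene of the same cluster, was at 19.5 CPM in WT, 20.2 to 22.6 in KO and 19.3 to 20.7 in neo (log2 fold change -0.088). Its sign changed on the TPM scale. On that scale, as log2(TPM + 0.1), the median over all genes was 0.097, which also applies to the sign changes of other genes below. Ube3a, the ubiquitin ligase of the cluster that neurons express from the maternal copy, was at 143 CPM in WT, 174, 142 and 125 in KO and 134, 103 and 103 in neo. Its log2 fold change was -0.37 (unadjusted p = 0.0397, adjusted p = 0.522, edgeR) and -0.51 without neo replicate 1 (adjusted p = 0.205). Genes of this cluster thus had values in opposite directions, and none passed edgeR. Mkrn3, the tested gene of the cluster nearest to Ndn, had the same direction as Ndn, but at only 0.662 to 1.62 CPM. Snrpn (59982495 to 60140219) and Ube3a (59228750 to 59311536) lie further away, with -0.088 and -0.37. A link between position and direction was not tested.

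**Figure D3:**
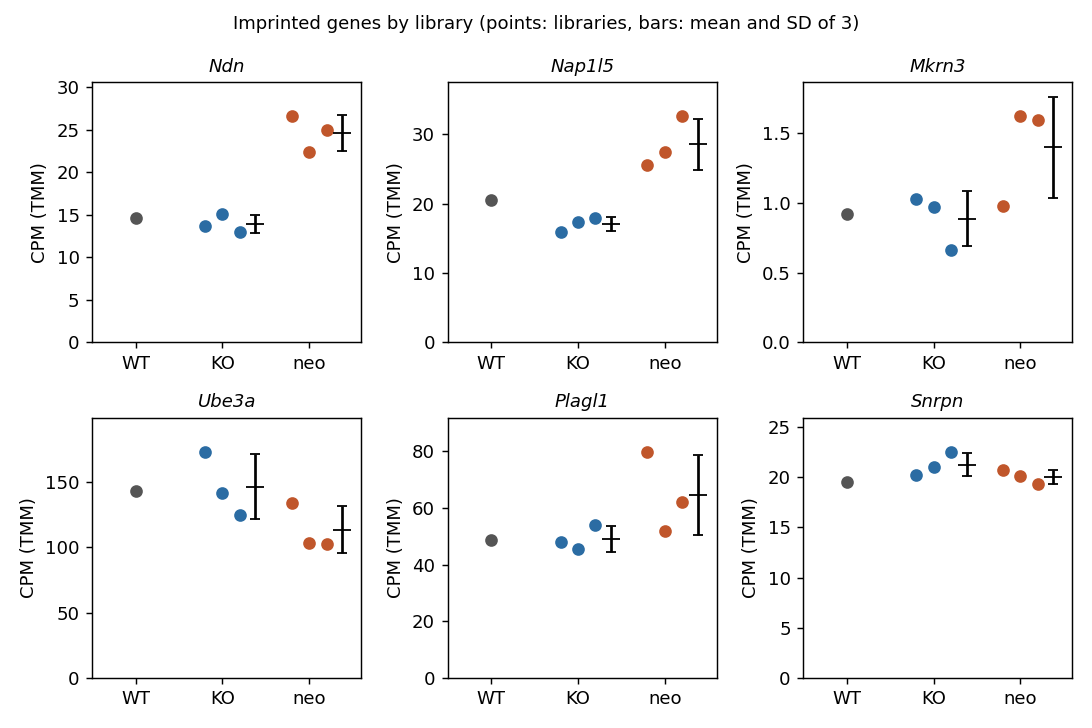
CPM by library for 6 genes, points for libraries and bars for the mean and SD of 3, with axes from 0. The neo points lie above all KO points for Ndn and Nap1l5, and the groups overlap for Mkrn3, Ube3a, Plagl1 and Snrpn.

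Nap1l5 (chromosome 6, 58905233 to 58907076, minus strand) lies inside Herc3, which runs on the other strand. The count table is named as stranded, which would keep the 2 apart. Plagl1, a zinc finger transcription factor, was at 48.8 CPM in WT, 47.9, 45.3 and 54.0 in KO and 79.9, 51.8 and 62.0 in neo. Its log2 fold change of 0.40 had an unadjusted p of 0.0362 and an adjusted p of 0.515 (edgeR), and was 0.21 without neo replicate 1. Inpp5f, a phosphoinositide phosphatase gene, was at 48.4 CPM in WT, 50.3 to 53.6 in KO and 56.9 to 61.7 in neo, a log2 fold change of 0.17 (adjusted p = 0.596).

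The 5 genes of the Dlk1/Meg3 cluster on chromosome 12 differed mainly between neo replicate 1 and all other libraries. Dlk1, a transmembrane Notch-like protein of precursor cells and developing muscle, was at 3.53 CPM in WT, 2.79, 2.75 and 2.21 in KO and 32.8, 2.70 and 2.72 in neo. That library was 9.27 times the next highest. It was 3.30 times the next highest for Meg3, 4.09 times for Rian and 3.85 times for Mirg, the noncoding RNAs of the maternal copy. The log2 fold changes of Dlk1, Meg3 and Rian were 2.32, 1.2 and 1.27, and 0.072, 0.068 and 0.079 without that library. The muscle genes of the same library include Acta1 at 326 CPM (at most 7.12 elsewhere), Myh8 at 279 CPM (at most 2.93) and Ckm at 96.9 CPM (at most 1.44). Pax7, a muscle progenitor factor, was at 3.28 CPM there and 6.79 to 20.4 CPM elsewhere. The part of muscle RNA, or of the sex of this library, in these values was not tested.

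**Figure D4:**
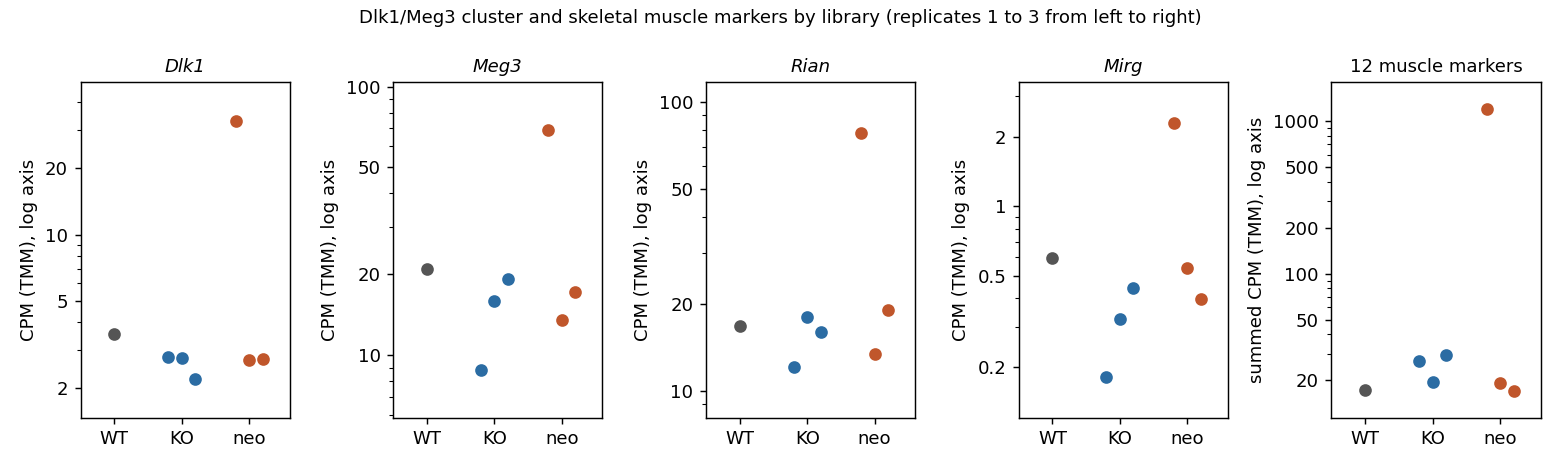
CPM by library on log axes for Dlk1, Meg3, Rian and Mirg, and the summed CPM of 12 skeletal muscle markers. Neo replicate 1 lies above all other libraries in each panel, at 32.8 CPM for Dlk1 and 1188 CPM for the markers.

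The same library was the highest of the 7 in 19 of 30 tested genes, against 18.5% of all genes, and was at least 1.5 times the next highest in 6, against 1.18%. These were Dlk1, Meg3, Rian, Zim1 (2.61 times), Peg10 (2.0) and Peg3 (1.5). Zim1 and Peg3 are zinc finger genes of 1 cluster, and Peg10 is a gene derived from a retrotransposon. Their log2 fold changes of 0.72, 0.63 and 0.32 became -0.067, 0.054 and 0.048 without it. Usp29 lies 146 bases from Peg3, and Sgce lies 98 bases from Peg10. Usp29 had 0.34 (0.13 without that library), while Sgce had -0.069 and changed sign on the TPM scale.

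**Figure D5:**
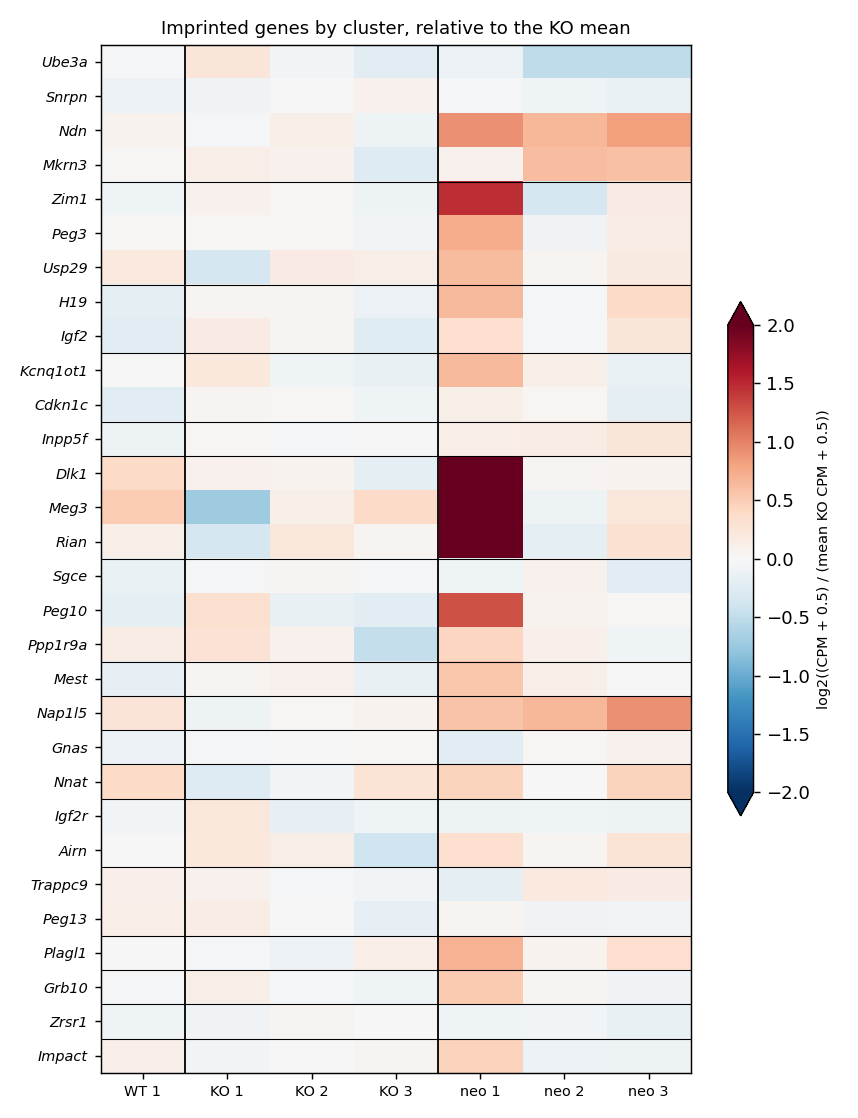
Each tested gene by library as log2((CPM + 0.5) / (mean KO CPM + 0.5)), grouped by cluster, with colours ending at -2 and 2. Ndn and Nap1l5 are above the KO mean in all 3 neo libraries, and Dlk1, Meg3 and Rian are highest in neo replicate 1.

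H19 was at 392 CPM in WT, 462, 462 and 407 in KO and 692, 436 and 581 in neo, with a log2 fold change of 0.36 (adjusted p = 0.539, edgeR) and 0.20 without neo replicate 1. Igf2 had 0.18, and 0.10 without that library. Grb10, which encodes an adaptor that dampens insulin signalling, had 0.20, and -0.0014 without it. Igf2r, the receptor that clears IGF2, had -0.10 and its antisense RNA Airn 0.25. Igf2r changed sign on the TPM scale and without KO replicate 1. Cdkn1c was at 55.2 ± 2.83 CPM (SD, n = 3) in the KO libraries and 55.1 ± 6.01 (SD, n = 3) in those of neo, a log2 fold change of -0.0042, and -0.069 without neo replicate 1. Its sign changed on the TPM scale and under other settings. Mest had 0.25, and 0.066 without that library. Gnas was at 762 ± 18.9 and 746 ± 83.8, a log2 fold change of -0.034, and its sign changed on the TPM scale and without neo replicate 1 (0.058).

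The remaining tested genes had adjusted p-values from 0.632 to 0.968 in edgeR. Nnat, a small membrane proteolipid gene of developing brain, was at 29.98 CPM in WT, 19.02, 22.0 and 27.8 in KO and 31.6, 22.8 and 31.4 in neo (log2 fold change 0.32), so that the groups overlapped. Kcnq1ot1, the long noncoding RNA that silences its cluster, had 0.26, and a value near 0 without neo replicate 1, in which it was at 28.1 CPM against at most 20.6 CPM elsewhere. Impact, a regulator of translation under stress, had 0.11, and -0.12 without that library. Ppp1r9a, a synaptic actin-binding scaffold gene, had 0.16, and 0.0073 without that library, and the KO libraries alone ran from 21.0 to 35.9 CPM. Trappc9, a vesicle transport gene, had 0.065, and 0.18 without that library. Peg13, the noncoding RNA inside it on the same strand, had -0.024, and -0.061 without it, and reads of the 2 may not be fully separable. Zrsr1, a retrotransposed splicing factor gene, was at 16.2 CPM in WT, 16.5 to 18.0 in KO and 15.6 to 16.6 in neo (log2 fold change -0.10). Peg13 and Zrsr1 changed sign on the TPM scale. By the parental copy assigned to each whole gene as background, 15 of 19 paternal and 7 of 11 maternal genes had positive log2 fold changes, with medians of 0.26 and 0.16. Without neo replicate 1 these were 14 and 6, with medians of 0.072 and 0.0073. The assigned copy was not measured and may not hold in every cell type or for every start site, as for Ube3a outside neurons. The difference between the 2 classes was not tested.

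Against the single WT library, 35 of the genes were tested with all 7 libraries. In KO, 0 were called (0.00523% of all genes) and 0 had an unadjusted p under 0.05 (0.727%), and in neo 0 were called (0.0105%). DESeq2 also called 0 in each (0.00524% and 0.0157% of all genes). In neo, 2 had an unadjusted p under 0.05 (2.97%), Ndn with a log2 fold change of 0.75 (SE 0.19) and Nap1l5 with 0.47 (SE 0.19). The log2 fold change of Ndn in KO over WT was -0.069. These comparisons share libraries with that of neo and KO.

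Transcript values were estimates by RSEM, and transcripts of 1 gene share reads. With limma on log2(TPM + 0.1), 0 of 95 transcripts were called (0% of 44981), and 7 had an unadjusted p under 0.05 (5.19%). They came from Ndn, Nap1l5, Inpp5f, Nnat, Ube3a and Mest, which had 2. The Mest transcripts begin at 30738050, just after the printed promoter, and at 30738053. With 1 more transcript they form a start group that was at 12.3 TPM in WT, 5.83, 7.99 and 7.58 in KO and 13.3, 12.6 and 11.3 in neo. The start group upstream, at 30733454 to 30733506, carried most Mest TPM and overlapped between groups. The Ube3a transcript begins at 59286178, within the gene, and its start group was at 6.44 TPM in WT, 10.4, 9.62 and 5.89 in KO and 4.46, 0.87 and 3.74 in neo. KO and neo did not overlap in the Mest group at 30738050 or in this one, but both were chosen after their values were seen, so this restates the p-values of their transcripts, and the share over all start groups was not computed. Of Gnas, 85.6 to 87.5% of TPM came from starts at 174330006 to 174330287 on chromosome 2.

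In the other lists edgeR called 0 genes, and DESeq2 called 1 in those of this paragraph, Igfbp2. The counts below are at an unadjusted p under 0.05, which 4.59% of all genes passed with neo higher and 4.72% with neo lower. In these lists, 1 of 17, 18 or 19 tested genes, or 2 of 38, lies near that share. A count of 2 of 17 lies above it but rests on 2 genes. Of 50 other imprinted genes, 38 were tested, of which 2 were past that p with a negative log2 fold change, H13 (-0.37) and Atp10a (-0.56). Of imprint maintenance and DNA methylation genes, 1 of 19 was past it with a positive value, Uhrf1 (0.40, adjusted p = 0.505), which brings the maintenance methyltransferase to DNA, and Eed, a Polycomb subunit, had 0.19. Of the insulin-like growth factor pathway, 2 of 17 were past it with positive values, Igfbp2 (0.49, DESeq2 adjusted p = 0.0259) and Igfbp3 (0.30), and 1 with a negative value. Of MAGE family and necdin partners, 1 of 18 was past it with a positive value, E2f1 (0.46), a transcription factor that necdin binds, and 1 with a negative one, Trim27 (-0.27).

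Markers of other cells are given by the same count, at an unadjusted p under 0.05 in edgeR, beside the same shares of all genes (4.59% with neo higher, 4.72% with neo lower). Bone markers summed to 2052, 1967 and 3556 CPM in KO and 1369, 860 and 432 in neo (8 of 11 past that p with negative values, Mepe and Bglap with the smallest p). Of fibroblast markers, 2 of 13 had negative values past it, Col1a1 (-1.09) and Col1a2 (-1.11). Sustentacular (4 of 10, Sult1c1 and Muc2), basal (4 of 11, Trp63 and Top2a), macrophage (5 of 10, Aif1 and Adgre1, with 1 negative) and mature neuron markers (3 of 15, Umodl1 and Ric8b) had members past it with positive values. A single member was past it with a negative value among immature neuron markers (Gap43, of 11), glia (Sox10, of 10), vessel cells (Cspg4, of 10) and autonomic ganglion (Prph, of 3 tested), and 1 of 7 tested muscle markers with a positive value (Myh3), and no change is read from 1 such gene. Cartilage had 2 of 9 positive and 2 negative (Col9a1 and Col11a1), and erythroid markers 0 of 7 either way. Without neo replicate 1, the shares of all genes were 5.75% with neo higher and 7.83% with neo lower. Negative values past that p then came from 4 immature neuron, 10 bone and 4 fibroblast markers. Positive ones came from 6 mature neuron, 5 sustentacular, 4 basal and 5 macrophage markers. The other cell types had at most 2 either way. DESeq2 called 2 bone markers (Mepe and Bglap) and 2 fibroblast markers (Col1a1 and Col1a2) lower, and 1 sustentacular marker (Sult1c1) higher. The part of these cell types in the values of the imprinted genes was not tested.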

How the data were processed

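RNA from 7 libraries of olfactory epithelium was captured by poly(A), per the labels' protocols. The authors deposited gene counts as whole numbers, and TPM values by RSEM per gene and transcript, with Trimmomatic 0.35, STAR 2.5.1b and DESeq2 1.18.1 on GRCm38, per the submitters' processing notes. The sources used here do not name the counter, and the count table is named as stranded. The authors' deposited comparison of KO with neo gives log2 fold changes, a standard error used here as a score, and p-values, per the file headers. FPKM tables were not used.

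Besides 50600 gene rows, 4 summary rows were left out, and reads mapping to several places (14.5 to 19.6% of reads) are in one of those rows. The ribosomal RNA overlapping gene Gm42418 held 9.83 to 16.5% of the counts. Every pair of libraries differed by more than counting noise (chi-square over its degrees of freedom at least 9.58).

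Counts were tested with edgeR 4.0.16 in R 4.3.3 (TMM, minimum count 10, minimum total 15, robust quasi-likelihood, two-sided, Benjamini-Hochberg at 0.05). Neo was compared with KO over 6 libraries, and WT comparisons used all 7, where the spread of the single WT library was taken from the other groups. Transcripts at a mean TPM of at least 0.5 were tested with limma 3.58.1. Alternatives were DESeq2 1.42.0, RLE factors, other count filters, 1 fit of all libraries, a replicate block, limma on gene TPM and leaving out each library. The scripts were tested on simulated data. Members, lists and rules were chosen with earlier results of these data known. The rule names Ndn, members past a threshold or at an unadjusted p under 0.05 in neo against KO, and the 6 with the highest mean TPM. The other genes described by library were chosen after their values were seen. Of each list, the genes with the smallest p are named.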

Additional observations from a re-analysis of the deposited data

How the results depend on the processing

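With no count filter (40 of 30780 genes called in all), with DESeq2 (101 called in all) and with DESeq2 without neo replicate 1, the number of imprinted genes called in neo against KO was 2 in place of 0, Ndn and Nap1l5, and the cause was not tested. Over all settings with all libraries or 1 left out, the log2 fold change was 0.76 to 0.91 for Ndn and 0.63 to 0.86 for Nap1l5. Leaving out each library in turn gave 0 to 0 called imprinted genes and a median log2 fold change of 0.062 (without neo replicate 1) to 0.32. Without neo replicate 1, 17 genes of the whole table were called in place of 3. With the replicate block, 0 imprinted genes and 1 gene of the whole table were called. Same-numbered KO and neo libraries had correlated deviations of -0.095, -0.053 and 0.20, so the numbers were not taken to pair them.

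Signs changed for 11 genes, most with a log2 fold change near 0 but also Zim1 (0.72 with all libraries), Grb10 (0.20) and Ppp1r9a (0.16), and the cause was not tested. On log2(TPM + 0.1) and log2(TPM + 1), the log2 fold change was for Snrpn 0.071 and 0.068, for Sgce 0.036 and 0.035, for Igf2r 0.031 and 0.029, for Cdkn1c 0.050 and 0.049, for Gnas 0.055 and 0.055, for Zrsr1 0.038 and 0.034 and for Peg13 0.089 and 0.085. The median over all genes on these 2 scales was 0.097 and 0.087, against -0.0022 in edgeR. Each of these values lay below the median of its scale. In edgeR the log2 fold change of each of these genes was smaller in size than its SE (-0.0042 with SE 0.11 for Cdkn1c). No direction is therefore read for them. With a filter of 50 counts in 3 libraries, Cdkn1c had 0.0095. Leaving out each library in turn gave -0.067 to 1.05 for Zim1, -0.028 to 0.34 for Ppp1r9a, -0.18 to 0.033 for Igf2r, -0.069 to 0.078 for Cdkn1c, -0.0014 to 0.31 for Grb10, -0.12 to 0.22 for Impact, -0.10 to 0.058 for Gnas and -0.10 to 0.066 for Peg13. The few counts of Magel2, Rtl1, Mirg, Phlda2, Nespas and Rasgrf1 limit what can be said of them.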

Other observations

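The start sites of 2 further imprinted genes were described from transcript TPM, with no test. Of Igf2, 76.8 to 87.3% of TPM came from starts at 142657466 to 142657496 on chromosome 7. Of Grb10, 63.4 to 99.1% came from the start at 12037401 on chromosome 11 and 0.306 to 26.4% from that at 12027971, a spread between libraries that overlapped between KO and neo.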
